A study of Homo sapiens with 4 samples.

Results

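The messages of 10 genes that control passage through the G1 phase of the cell cycle were followed on 4 expression arrays: the D-type cyclins CCND1, CCND2 and CCND3, the E-type cyclins CCNE1 and CCNE2, the kinase CDK6, and the CDK inhibitors CDKN1A, CDKN1B, CDKN2A and CDKN2B. They were found as the probes whose RefSeq accession belongs to 1 of these genes, which gave 20 of the 41000 probes on the array and 10 of its 16422 named genes. Probes below a signal of 100 on all 4 arrays were set aside. This left 16 probes of 9 genes, out of 25927 probes and 12159 named genes in all, and CCND2 had no kept probe.

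Both cell lines, SkBr3 and BT474, come from breast cancers that overexpress HER2 (gene ERBB2), the receptor tyrosine kinase that drives their growth. Lapatinib inhibits the HER2 and EGFR kinases. The 4 samples were parental SkBr3 and parental BT474, both labelled as vehicle, and 1 lapatinib-resistant clone of each, SkBr3/Lap and BT474/Lap, which had been selected with increasing lapatinib up to 1 μM. All were grown in DMEM/F12 medium, and total RNA was hybridized to 1 array per sample. The clone numbers in the sample labels and in the paper are swapped between the lines, so the clones are named here by their line alone. Each resistant group was a single clone. The labels give lapatinib as the treatment of the clones, so clone, drug exposure and culture cannot be told apart in a difference between a clone and its parent.

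D-type cyclins are made in response to growth factor signals and activate CDK4 and CDK6, which phosphorylate the retinoblastoma protein. E-type cyclins then activate CDK2, retinoblastoma protein is further phosphorylated, and E2F factors switch on the genes of DNA replication. Inhibitors of the CIP/KIP family (CDKN1A, or p21, and CDKN1B, or p27) restrain cyclin E and CDK2, and those of the INK4 family (CDKN2B, or p15, and the p16 product of CDKN2A) bind CDK4 and CDK6. In HER2-positive breast cancer cells, blocking HER2 is known to lower cyclin D1 and to raise p27.

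The promoters of the 3 members that reached 2-fold in a clone are shown for orientation. Each window is the 250 bases before an annotated gene start, taken from RefSeq on GRCh38.p14 and written on the strand of the gene, and capitals mark GC boxes, GGGCGG on either strand, a motif of SP1-like factors. Where a gene has several starts, the window with the most GC boxes is printed. The CCND3 window is chr6:42048689-42048938, the CDK6 window chr7:92836574-92836823 and the CDKN2B window chr9:22009306-22009555, all on the minus strand.
CCND3: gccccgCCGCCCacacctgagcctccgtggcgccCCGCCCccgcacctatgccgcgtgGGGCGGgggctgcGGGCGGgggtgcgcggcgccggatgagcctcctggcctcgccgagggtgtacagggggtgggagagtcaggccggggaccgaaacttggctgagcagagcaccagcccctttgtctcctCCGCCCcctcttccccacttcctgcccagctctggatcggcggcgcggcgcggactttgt
CDK6: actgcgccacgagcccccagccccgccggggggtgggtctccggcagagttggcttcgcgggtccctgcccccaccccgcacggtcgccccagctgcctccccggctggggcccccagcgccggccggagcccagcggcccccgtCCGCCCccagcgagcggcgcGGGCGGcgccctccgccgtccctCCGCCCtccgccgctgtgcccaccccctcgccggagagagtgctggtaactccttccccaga
CDKN2B: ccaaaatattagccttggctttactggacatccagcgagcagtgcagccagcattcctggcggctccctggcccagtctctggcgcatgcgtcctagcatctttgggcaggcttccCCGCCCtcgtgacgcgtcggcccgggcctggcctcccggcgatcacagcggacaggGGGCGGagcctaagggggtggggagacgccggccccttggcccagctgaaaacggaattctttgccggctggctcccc
These windows hold 5, 3 and 2 GC boxes, and for CCND3 and CDK6 the choice of window favours a high count. The CCND3 windows not printed held 2 and 0, and the CDK6 window not printed held 0. Which start the probes measure was not tested. Of the 11 windows found for 7 members, 8 held at least 1, where 42.6% of all 35116 windows did. All 7 genes had such a window, but some had more than 1 window, so the share of windows is no measure for that count. CCNE1 had the most, with 7, CDKN1A had 4, and CDKN1B and 1 window of CDKN2A had 1 each. No window of these 7 genes held an E2F motif (TTTCCCGC or TTTGGCGC), a FOXO motif (GTAAACA) or the NF-κB motif, each searched on both strands, and 1.93%, 2.98% and 1.73% of all windows did.

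The signal is the processed intensity of the scanner software on a linear scale, and the level is its log2 minus the log2 of the 75th percentile of that array's probes, so a level of 0 equals that percentile. For the parents this percentile was 1115 (SkBr3) and 1158 (BT474), and for the clones 2074 (SkBr3/Lap) and 1681 (BT474/Lap), so unscaled signals ran higher in both clones. Between 66.6% and 74.02% of the probes on an array were marked well above background, and no spot was saturated. The SkBr3/Lap array was alone on its slide and the other 3 shared a slide, so in the SkBr3 comparison slide and clone cannot be told apart, while the BT474 comparison lay within 1 slide. With 1 array per sample there was no replicate error. Kept probes of 1 gene that were well above background on all 4 arrays disagreed by a median of 0.28 log2 in each clone over 3566 genes. This spread includes any difference between the transcripts that the probes match. It leaves out dimmer probes and holds no variation between cultures. By its brighter probe, ERBB2 itself was 3.74-fold lower in SkBr3/Lap and 1.57-fold lower in BT474/Lap. Its second probe gave -2.02 log2 in SkBr3/Lap and -0.26 in BT474/Lap, where it lay below the median disagreement between probes. A lower ERBB2 in BT474/Lap was thus not settled. EGFR, the other target of lapatinib, differed by 1.32 and -1.34 log2 in the same order. Of 2 genes often used as references, GAPDH differed by -0.43 and -0.02 log2 and ACTB by -0.51 and -0.86.

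Of the 9 measured member genes, 1 was at least 2-fold higher in SkBr3/Lap than in SkBr3, CCND3, and 0 were 2-fold lower. Among all named genes 14.1% were 2-fold higher and 14.4% lower in this clone. In BT474/Lap 2 members were at least 2-fold higher than in BT474, CDK6 and CDKN2B, and 0 were lower, against 9.2% higher and 5.4% lower of all named genes. The brightest probe of each of the 9 members had a signal of at least 100 in at least 1 parent. Over all kept probes, 12.9% were 2-fold higher and 15.6% lower in the SkBr3 clone, and 10.3% and 5.16% in the BT474 clone. The median log2 change of the 9 members was 0.05 in SkBr3/Lap and 0.07 in BT474/Lap, beside -0.06 and -0.09 over all named genes. No member was 2-fold higher in both clones.

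**Figure D1:**
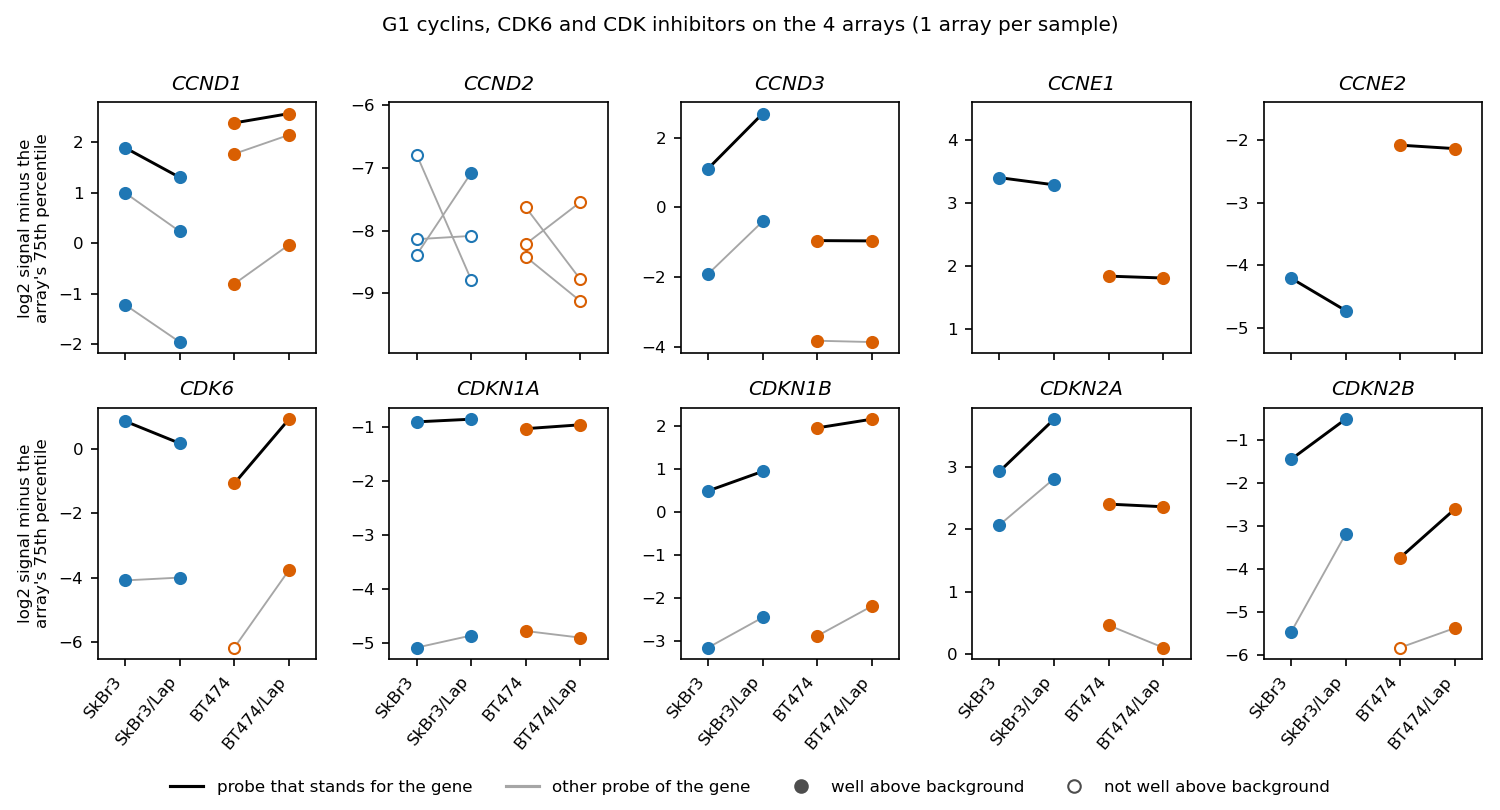
Level of each probe of the 10 genes on the 4 arrays, as log2 signal minus the log2 of the array's 75th percentile; each panel has its own vertical axis. Each line joins a parent to its clone, black for the probe that stands for the gene and grey for others, and open circles are not well above background. CCND3 climbs by 1.58 in the SkBr3 pair and CDK6 by 2.001 in the BT474 pair, while the CCND2 probes lie near the background.

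CCND3, cyclin D3, had the largest change in the SkBr3 clone among the brightest probes of the 9 members. The signal of its brighter probe was 2416 in SkBr3, 13456 in SkBr3/Lap, against 599 in BT474 and 863 in BT474/Lap, at levels of 1.12, 2.70, -0.95 and -0.96. SkBr3/Lap was the highest of the 4 arrays, SkBr3 was next, and both BT474 arrays lay together well below. CCND3 was thus 2.99-fold higher in SkBr3/Lap than in its parent, a log2 change of 1.58, and differed by -0.01 log2 in the BT474 pair. The second probe gave 2.85-fold, or 1.51 log2, and -0.04, so the disagreement between the probes was below the median for a gene.

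CCND1, cyclin D1, the D cyclin that HER2 signaling is known to induce, stayed within 2-fold in both clones. Its probe with 10 spots had a median spot signal of 4126 in SkBr3 (lowest 3828, highest 4446) and 5174 in SkBr3/Lap (4668 to 5546). In BT474 the median spot was 6250 (5298 to 6570) and in BT474/Lap 10097 (8994 to 10568). After scaling, the levels were 1.88, 1.30, 2.38 and 2.56, so BT474/Lap was the highest and SkBr3/Lap the lowest. The log2 change was -0.59 in SkBr3/Lap, or 1.501-fold lower, and 0.18 in BT474/Lap, or 1.14-fold higher. The other 2 CCND1 probes gave -0.76 and -0.74 in the SkBr3 pair and 0.37 and 0.77 in the BT474 pair. All 3 probes were lower in SkBr3/Lap and higher in BT474/Lap, but none reached 2-fold, and the sign in the BT474 pair turned for the brightest probe (-0.02) when arrays were scaled by their medians.

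CCND2, cyclin D2, was at the background. Its 3 probes had signals between 3.01 and 15.3 over all 4 arrays, where the lowest signal marked well above background on an array was 13.3 to 16.01. Of these 12 measurements 1 was marked well above background, 15.3 for a single probe in SkBr3/Lap, and the limit it sets over SkBr3 was under 1-fold. No fold change is given for CCND2 among the main results. Those printed below with no filter are not measured changes, as at least 1 array of each pair was not well above background.

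CDK6, a catalytic partner of the D cyclins, had the largest change in either clone among the brightest probes of the members. The signal of its brighter probe was 2042 in SkBr3, 2356 in SkBr3/Lap, against 554 in BT474 and 3216 in BT474/Lap, at levels of 0.87, 0.18, -1.06 and 0.94. BT474 stood apart as the lowest array, and BT474/Lap came up to the level of SkBr3. CDK6 was 4.002-fold higher in BT474/Lap than in BT474, a log2 change of 2.001, and 1.61-fold lower in SkBr3/Lap than in SkBr3, a log2 change of -0.69. The dimmer probe had signals of 65.6, 130, 15.98 and 124 in the same order, and that in BT474 was not well above background. It put CDK6 at least 5.33-fold higher in BT474/Lap, and it passed the signal limit only through the clones. In the SkBr3 pair it gave 0.09, so the 2 probes differed there in sign and the direction of CDK6 in SkBr3/Lap was not settled.

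The E cyclins, which act after the D cyclins through CDK2, differed far more between the lines than between a clone and its parent. CCNE1, cyclin E1, had signals of 11780, 20249, 4130 and 5869 in SkBr3, SkBr3/Lap, BT474 and BT474/Lap, with levels of 3.40, 3.29, 1.83 and 1.80. Its log2 change was -0.11 in SkBr3/Lap and -0.03 in BT474/Lap, both smaller than the usual disagreement between probes, and both signs turned under another scaling. CCNE2, cyclin E2, had signals of 60.5, 78.7, 273 and 381, with levels of -4.20, -4.72, -2.09 and -2.14. Its log2 change was -0.52 in SkBr3/Lap and -0.05 in BT474/Lap. Each was measured with 1 probe. CCNE1 was the higher in both SkBr3 arrays and CCNE2 the higher in both BT474 arrays, when each gene is compared with itself across the lines.

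CDKN1A and CDKN1B encode the CIP/KIP inhibitors p21 and p27. CDKN1A was nearly level over the 4 arrays. Its 10-spot probe had median spot signals of 600 in SkBr3, 1161 in SkBr3/Lap, against 569 in BT474 and 867 in BT474/Lap, which scaled to -0.90, -0.85, -1.02 and -0.95. The log2 change was 0.05 and 0.07 in the 2 clones, with a log2 SD among the spots of an array of 0.05. A dimmer CDKN1A probe, which stayed under the signal limit with 32.7 to 71.2, gave 0.23 and -0.12.

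CDKN1B was above its parent in both clones on both probes, within 2-fold, except that the brighter probe gave -0.0044 log2 in BT474/Lap under median scaling. The 10-spot probe had median spot signals of 1560 in SkBr3, 4018 in SkBr3/Lap, against 4570 in BT474 and 7622 in BT474/Lap, at levels of 0.49, 0.95, 1.96 and 2.16. The 2 BT474 arrays were the higher ones. The change was 0.46 log2 (1.37-fold) in SkBr3/Lap and 0.20 (1.15-fold) in BT474/Lap. The second probe, at signals of 125, 378, 157 and 368, gave 0.70 (1.63-fold) and 0.69 (1.62-fold).

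CDKN2A and CDKN2B lie next to each other and encode INK4 inhibitors. CDKN2A also encodes ARF, a regulator of p53, from an overlapping reading frame, and its 2 probes carried the same accession, so they were not assigned to p16 or ARF. The brighter probe had signals of 8464 in SkBr3, 28094 in SkBr3/Lap, against 6123 in BT474 and 8628 in BT474/Lap, at levels of 2.92, 3.76, 2.40 and 2.36. SkBr3/Lap was again the highest array. CDKN2A was 1.78-fold higher in SkBr3/Lap, a log2 change of 0.84, and differed by -0.04 in the BT474 pair. The 10-spot probe, with levels of 2.07, 2.81, 0.46 and 0.11, gave 0.74 and -0.36.

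CDKN2B was close to 2-fold higher in both clones by the probe that stands for it. The signal of its brighter probe was 409 in SkBr3, 1456 in SkBr3/Lap, against 86.9 in BT474 and 276 in BT474/Lap, at levels of -1.45, -0.51, -3.74 and -2.61. Each clone lay above its own parent, and both SkBr3 arrays lay above both BT474 arrays. It was 1.92-fold higher in SkBr3/Lap, a log2 change of 0.94, just short of 2-fold, and 2.19-fold higher in BT474/Lap, a log2 change of 1.13, just past it. The calls moved with the scaling: the SkBr3 change was 1.095 and the BT474 change 0.92 under median scaling, and the BT474 change was 0.59 after normexp correction with quantile normalization. The 2 probes were matched to different RefSeq transcripts of the gene, so they need not measure the same message. Which product each measures was not tested. The second probe had signals of 25.1, 227, 20.4 and 40.5, of which that in BT474 was not well above background. It gave 4.88-fold, or 2.29 log2, in the SkBr3 pair, more than the brighter probe, and at least 1.37-fold in the BT474 pair. This probe passed the signal limit only through SkBr3/Lap, the array where it is high.

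**Figure D2:**
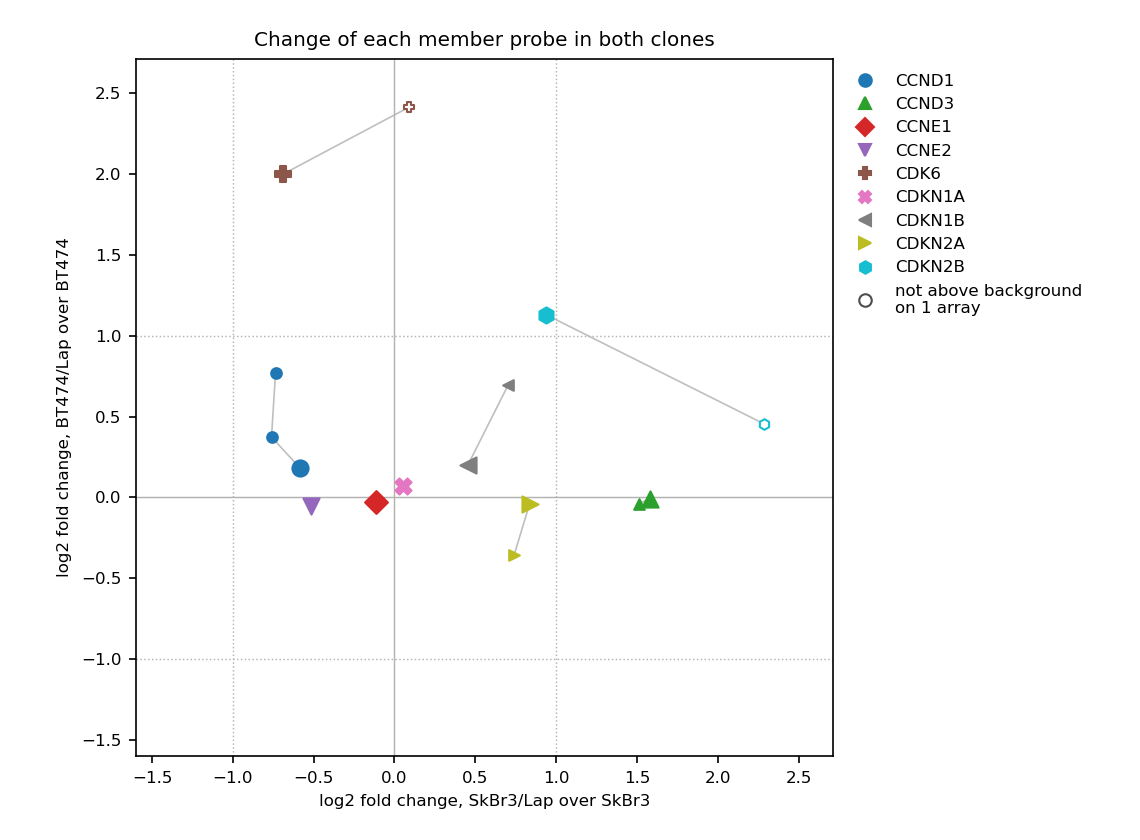
Log2 fold change of each kept member probe in the SkBr3 clone (horizontal) and the BT474 clone (vertical), each over its own parent; large symbols stand for the gene, lines join probes of 1 gene, dotted lines mark 2-fold. CCND3 lies far to the right at 1.58 with almost no vertical shift, CDK6 at the top at 2.001, and CDKN2B upper right at 0.94 and 1.13; no member lies 2-fold down in either clone.

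Before selection the 2 lines already differed in these genes. Among the 9 members, 4 were at least 2-fold higher in SkBr3 than in BT474 and 2 were lower, while 38.8% of all named genes differed by 2-fold either way. CDKN2B was 4.89-fold, CCND3 4.19-fold, CDK6 3.83-fold and CCNE1 2.96-fold higher in SkBr3. CCNE2 was 4.34-fold and CDKN1B 2.77-fold lower in SkBr3. The second probes gave 3.78-fold for CCND3, at least 4.27-fold for CDK6 and at least 1.28-fold for CDKN2B. The second CDKN1B probe put the gene only 1.21-fold lower, and the 10-spot CDKN2A probe put that gene 3.04-fold higher in SkBr3 where the brighter probe gave 1.44-fold. CCND1 was 1.41-fold lower in SkBr3, and CDKN1A was 1.09-fold higher.

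Resistance was tested with limma over all kept probes, with cell line as a block, which leaves 1 residual degree of freedom. It called 0 of 25927 probes at an adjusted p below 0.05 (0.0%), and 900, or 3.47%, had an unadjusted p below 0.05. No member gene was among these. The lowest limma p of a gene's brightest probe was 0.0779 for CDKN2B, with an effect of 1.03 log2 (SE 0.42) and a limma adjusted p of 1.00. For CCND3 the effect was 0.79 (SE 0.59) and for CDK6 0.66 (SE 0.83).

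The other genes of the pathway were read from 4 lists, with members left out. Among all named genes, 14.1% were 2-fold higher and 14.4% lower in SkBr3/Lap, and 9.2% and 5.4% in BT474/Lap. Of 23 partners of the G1/S machinery, 22 had a kept probe. In SkBr3/Lap 4 were at least 2-fold higher and 3 lower, with a median of 0.39 log2 beside -0.06 for all named genes. SKP2, the F-box protein that targets p27 for degradation, was 2.60-fold higher (1044 in SkBr3 and 5048 in SkBr3/Lap), E2F5 2.52-fold, the inhibitor CDKN1C (p57) 2.37-fold and CDK2, the partner of cyclin E, 2.15-fold. RB1, the retinoblastoma gene, was 2.48-fold lower (4215 and 3163) and CCNH, a subunit of the CDK-activating kinase, 2.06-fold lower, and the third gene was CDKN2C, another INK4 inhibitor, at -1.04 log2. CDKN2C lies outside the naming rule and was named after its value was seen. In BT474/Lap 1 partner was 2-fold higher, 0 were lower, and the median was -0.14 beside -0.09. That gene was CDKN1C, at 3.34-fold with signals of 449 in BT474 and 2177 in BT474/Lap. CDKN1C was thus 2-fold higher in both clones, with a limma p of 0.0329 before adjustment and 1.00 after it.

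Of the E2F target and S phase genes, 23 are reported. In SkBr3/Lap 6 were at least 2-fold higher and 0 lower, beside 14.1% and 14.4% of all named genes. Their median was 0.43, beside -0.06 for all named genes. CDC45 was 2.85-fold, CDT1 2.72-fold, GINS2 2.31-fold, MCM2 2.10-fold and MCM5 2.09-fold higher, which all serve the licensing or start of DNA replication, and CCNA2, cyclin A2, was 1.06 log2 higher. In BT474/Lap 0 were 2-fold higher and 1 lower, CCNB1, cyclin B1, at 2.02-fold, beside 9.2% and 5.4% of all named genes. The median was 0.04 beside -0.09.

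CDKN1A is a classical target of p53, and 15 of 17 other p53 targets were measured. In SkBr3/Lap 3 were at least 2-fold higher and 3 lower, beside 14.1% and 14.4% of all named genes, with a median of -0.02. ZMAT3 was 4.05-fold, GADD45A 3.03-fold and TP53I3 2.46-fold higher, and TP53INP1 was 5.15-fold, RRM2B 3.32-fold and FDXR 2.40-fold lower. In BT474/Lap 0 were 2-fold higher and 2 lower, beside 9.2% and 5.4% of all named genes. The 2 were SESN2 at 3.66-fold and PLK3 at 3.01-fold, and the median of the list was 0.11. The p53 targets thus did not move one way in either clone, and CDKN1A lay near their medians in both.

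FOXO factors, which are held inactive by AKT, are known to raise CDKN1B. Of 11 FOXO genes and targets 9 were measured. In BT474/Lap 4 were at least 2-fold higher and 0 lower, beside 9.2% and 5.4% of all named genes. Their median was 0.96, beside -0.09 for all named genes. FOXO1 was 4.40-fold (560 in BT474 and 3576 in BT474/Lap), IRS2, an adaptor of insulin signaling, 3.87-fold, CITED2 2.23-fold and PIK3IP1, an inhibitor of PI3-kinase, 2.15-fold higher. A second FOXO1 probe gave 1.53 log2 in BT474/Lap. A second PIK3IP1 probe gave 0.71 log2 in BT474/Lap, under 2-fold, and -1.47 in SkBr3/Lap, past 2-fold lower. The calls for PIK3IP1 thus depended on the probe, and the counts here rest on the brightest probes. In SkBr3/Lap 2 were higher and 0 lower, beside 14.1% and 14.4% of all named genes, with a median of 0.07. These were IRS2, 36.7-fold higher with signals of 29.4 in SkBr3 and 2005 in SkBr3/Lap, and FOXO4, 2.18-fold higher. IRS2 had a limma p of 0.0263 before adjustment and 1.00 after it. No gene in the 4 lists passed the limma test after adjustment.

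**Figure D3:**
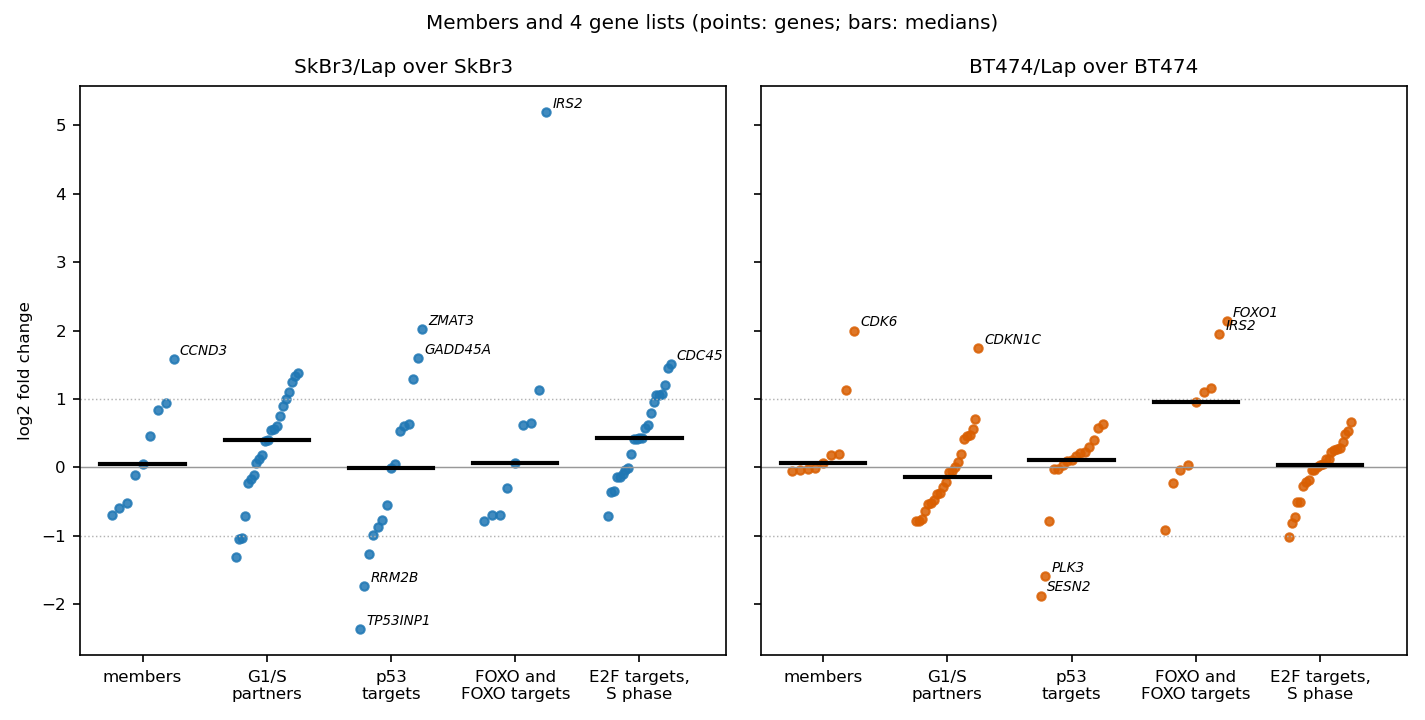
Log2 fold change of each measured gene among the 9 members and in the 4 lists, SkBr3/Lap over SkBr3 on the left and BT474/Lap over BT474 on the right; points are genes in rising order, bars are medians and dotted lines mark 2-fold. The medians of the G1/S partners (0.39) and of the E2F targets (0.43) lie above 0 in the SkBr3 clone, and that of the FOXO list (0.96) in the BT474 clone, while the member medians lie near 0 in both.

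To see whether a member's change was shared along its chromosome, the 5 nearest protein-coding genes with a kept probe on each side were read in RefSeq order, of which 9 are reported for CDK6. For comparison, 14.1% of all named genes were 2-fold higher and 14.4% lower in SkBr3/Lap, and 9.2% and 5.4% in BT474/Lap. Around CDK6 the neighbours did not move as a block. In BT474/Lap, where CDK6 was 4.002-fold higher, 2 of 9 neighbours were at least 2-fold higher and 1 lower: SAMD9, the next gene, differed by 2.22 log2, CALCR by 2.05 and TFPI2 by -1.89, and the median of the 9 was 0.27. In SkBr3/Lap 2 were higher and 2 lower, with TFPI2 at 2.31 and SAMD9 at -1.76. CALCR was at the background in both SkBr3 arrays, and ERVW-1 went from a background signal of 9.02 to 326 in SkBr3/Lap.

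Around CDKN2A and CDKN2B, MTAP, the adjoining gene, was 1.02 log2 higher in SkBr3/Lap, near the 0.84 and 0.94 of the pair, while the 10 neighbours had a median of -0.09. In BT474/Lap the 1 neighbour past 2-fold was MOB3B, whose signal was 15.2 in BT474, not well above background, and 258 in BT474/Lap. Around CCND1 0 of 10 neighbours passed 2-fold in SkBr3/Lap, and in BT474/Lap 1 was lower, ANO1 at -1.28. The medians were -0.37 and -0.39. Around CCNE1 0 passed in SkBr3/Lap, and in BT474/Lap RGS9BP was 1.44 higher.

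**Figure D4:**
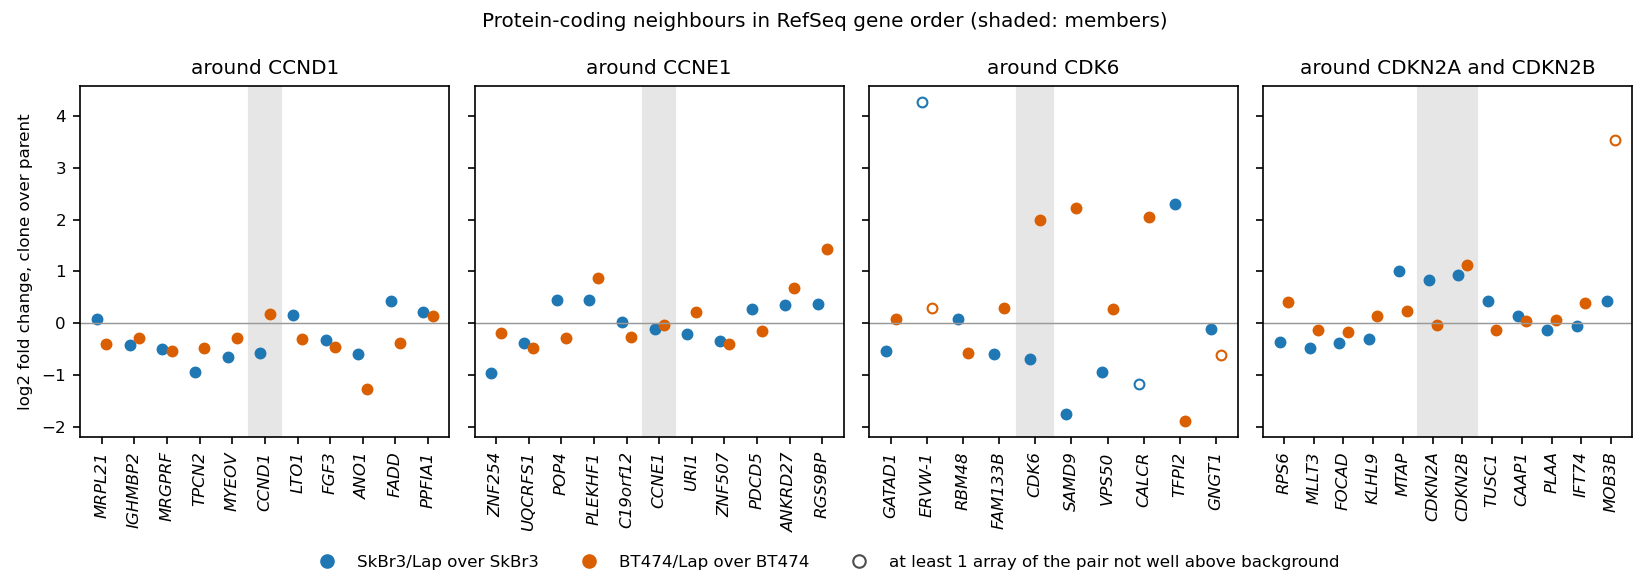
Log2 fold change of the protein-coding genes reported on each side of CCND1, CCNE1, CDK6 and the CDKN2A and CDKN2B pair, in gene order, blue for the SkBr3 clone and orange for the BT474 clone; members are shaded and open circles have at least 1 array not well above background. Only SAMD9 (2.22) and CALCR (2.05) among the CDK6 neighbours come near the 2.001 of CDK6 in the BT474 clone, and MTAP (1.02) lies beside the CDKN2A and CDKN2B values in the SkBr3 clone.

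For each member the named genes most alike over the 4 arrays were those with the smallest Euclidean distance between centred log2 profiles, among 16398 probes well above background on all 4. With 4 arrays many probes can lie this close, and the distances are a description. Nearest to CDK6 were SKIL (0.21), TRNP1 (0.26) and TENT5B (0.28), with changes in BT474/Lap of 1.96, 2.08 and 1.92 log2. Nearest to CCND3 were CYSTM1 (0.22), PIP4P2 (0.28) and ADI1 (0.34), and nearest to CDKN2B was TXNRD1 (0.04), which was 0.90 and 1.09 log2 higher in the 2 clones, ahead of NAB1 (0.20) and QSOX1 (0.22). CDKN2A had ATF3 (0.03), NUDT5 (0.06) and NSMCE4A (0.07) beside it, and CDKN1B had FBXW8 (0.10), RMND5A (0.12) and FCSK (0.12). For CCND1 they were PHF3 (0.01), LRRC8E (0.07) and KLHL12 (0.08), and for CCNE1 RHOG (0.04), MRPL35 (0.04) and CHAF1B (0.06). CCNE2 lay nearest to VIRMA (0.12), NCOA3 (0.15) and TMEM44 (0.15), and CDKN1A to GUK1, GOLT1B and FANCL (0.05 to 0.06).

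The cell type of the samples was read from marker genes. KRT8, KRT18, KRT19, EPCAM, GATA3 and ERBB2, markers of luminal or HER2-positive breast epithelium, were well above background on all 4 arrays. CDH1, E-cadherin, was not above background in either SkBr3 array (12.0 and 4.66) and reached 44710 and 56836 in the BT474 arrays, and ESR1, the estrogen receptor, was not above background in SkBr3. Of 8 luminal markers 6 to 8 were above background on an array. Of 13 markers of fibroblasts, leukocytes and endothelium on the array, PTPRC, COL1A2, DCN and LUM were not above background on any array, and THY1, CD3E, CD14, CD68 and VWF were on all 4. Their signals summed, per list, to 1.02 to 1.501 (fibroblast), 0.131 to 0.809 (leukocyte) and 0.162 to 0.781 (endothelial) times the 75th percentile of the array, and those of the luminal list to 484 to 806 times. COL3A1 was above background in SkBr3/Lap alone (347), PECAM1 in both clones (160 and 55.2) and in neither parent, and CDH5 was 8.43-fold higher in SkBr3/Lap. The part of these differences in the values of the cell cycle genes was not tested.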

How the data were processed

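Total RNA of 4 samples was hybridized to Agilent 4 × 44 K arrays, 1 per sample, 43376 spots for 41000 probes. The deposited spot values are the processed signal, a background-subtracted intensity that the authors did not scale between arrays, and flags. Per the file headers, the software was Feature Extraction 10.1.1.1 with Cy3 alone. The methods instead name an older release, Cy3 or Cy5, and LOWESS. They also deposited log2 values, used as an alternative, whose column differences match those of the processed signals (medians 0.12, -0.20, 0.11 and -0.05). How its probes were centred is not given in the sources used here.

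Log2 intensities were averaged over the spots of each probe and set against the 75th percentile of all non-control probes on that array. Probes with a signal of 100 on at least 1 array were kept. A gene stands by the brightest of its kept probes (mean over the 4 arrays). A probe counted as above background with at least 50% of its spots so flagged. Where 1 signal of a pair was not, the fold is a limit, "at least", against its own signal or the lowest flagged one on that array, whichever is higher. RefSeq accessions (GRCh38.p14, for names and gene order) named 23680 probes. The test was limma 3.58.1 in R 4.3.3 with Benjamini-Hochberg adjustment, and other steps used Python 3.11.15, numpy 2.4.6 and pandas 2.3.3. From each list, up to 6 genes per clone at least 2-fold changed with both arrays above background were named, along with neighbours at least 2-fold changed and the 3 genes most alike. Members, lists and rules were chosen with earlier results of these data known. The 11 alternatives were other scalings, filters, probe summaries and limma blocks. The number of arrays limits the precision. Some items that these rules cover are left out here. Scripts were tested on simulated data.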

Additional observations from a re-analysis of the deposited data

Results flagged for a closer look

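CDK6 moved in opposite directions in the 2 clones by its brighter probe, with a log2 fold change lower by 2.69 in the SkBr3 clone than in the BT474 clone (a difference of -2.69). The dimmer CDK6 probe differed between the clones by -2.32, with 0.09 in the SkBr3 clone. As each clone had 1 array, this difference was not tested, nor were those of the list genes that follow.

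Of the list genes named by the rule, 11 passed 2-fold in a clone and moved the opposite way in the other, each by more than the 0.28 log2 median disagreement between probes. Higher in the SkBr3 clone's change than in the BT474 clone's were SESN2 by 2.48, PLK3 by 2.12, TP53I3 by 2.07, E2F5 by 1.97 and CCNB1 by 1.43 log2. The SkBr3 minus BT474 difference was negative for RRM2B (-2.37), PIK3IP1 (-1.80), RB1 (-1.73), FDXR (-1.66), CCNH (-1.52) and CITED2 (-1.46). CDKN2C, outside the naming rule, gave -1.04 and 0.70.

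Outside the kept probes, 1 CCND2 probe had a signal of 15.3 marked well above background in SkBr3/Lap, where the parental arrays and BT474/Lap gave 3.33 to 5.85 for it, not above background.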

How the results depend on the processing

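The count of member genes at least 2-fold higher in SkBr3/Lap was 2 in place of 1 under median scaling and with the mean over a gene's probes (CDKN2B joins) and with no filter (CCND2 joins, 1.31 log2, at the background). In BT474/Lap it was 1 in place of 2, without CDKN2B, under median scaling, quantile normalization, normexp with quantile normalization and the mean over probes. With no filter 1 member was lower there, CCND2 (-1.15 log2), with neither array of the pair well above background. CCND3 stayed between 1.34 and 1.74 in the SkBr3 clone and CDK6 between 1.79 and 2.21 in the BT474 clone. CDKN2B ranged from 0.91 to 1.61 and from 0.59 to 1.24. Of 162 member values under alternatives, 157 moved by less than the disagreement between probes and 5 by more, and no change of 2-fold turned its sign. The filter alternatives left the levels as they were, so their values equalled the main ones. The deposited values and the removal of outlier spots changed the levels very little. The count of 157 thus includes settings that could hardly move a value. Changes close to 0 did turn under some scaling: CCNE1 in the SkBr3 pair, and CCND1, CCND3, CCNE1, CCNE2, CDKN1A, CDKN1B and CDKN2A in the BT474 pair.

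Over all kept probes, 4045 were 2-fold lower in the SkBr3 clone, 2304 after normexp and 11569 with no filter, and 3355 were higher, 2205 when probes had to be above background on all 4 arrays. In the BT474 clone 2661 were higher, 1480 after normexp, 4183 with no filter and 1758 above background on all 4, and 1337 were lower, 2172 under median scaling and 2665 with no filter. Median scaling moved the median change from -0.10 to 0.05 and from -0.05 to -0.26, and the share of higher among called probes from 45.3% to 55.3% and from 66.6% to 48.1%. The cause was not tested. limma called 0 probes after adjustment in each of the 10 alternatives run, and 0 member genes before adjustment in each of 11. The replicate numbers mark 1 array per condition, so no pairing of replicates within a line was possible. Clone and parent are paired by cell line, which is the block in limma, and no replicate could be left out. No depth applies to arrays, and signals near 13.3 to 16.01, the lowest marked above background, limit CCND2, 1 CDK6 probe and 1 CDKN2B probe.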
